A study of Mus musculus with 2 samples.

Results

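Chloride transporters and GABA-A receptor subunits were followed in the newborn mouse cortex through 7 genes, chosen by name: the cation-chloride cotransporters Slc12a2 and Slc12a5 and the receptor subunits Gabra2, Gabra3, Gabra5, Gabrb1 and Gabrb2. All probe sets that the platform annotation gives to exactly 1 of these genes were taken, 22 of the 34945 probe sets naming 1 gene, and the 7 genes stand among 18193 so named. The arrays compared 2 pools of cortical RNA, each from 3 mice and each hybridised to 1 Affymetrix array. The double knockout-labelled pool was MRTF-A-/- and MRTF-BF/F with GFAP-Cre, and the control-labelled pool was MRTFA-/- and MRTF-BFlox/Flox with no Cre named, so both lacked MRTF-A by label and differed in the Cre recombinase transgene, which removes floxed MRTF-B. Cre is made only where the GFAP promoter is or was active, so other cells of the cortex keep their floxed MRTF-B. Both pools are labelled postnatal day 0, except that the free description of the double knockout sample gives day 1. Both MRTF proteins work with SRF, a transcription factor, as its coactivators.

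GABA-A receptors are chloride channels opened by GABA and assembled from several subunits, of which the alpha and beta subunits together form the GABA binding site. Whether an open channel lets chloride in or out depends on the chloride gradient: Slc12a2 (NKCC1) brings chloride into the cell with sodium and potassium, and Slc12a5 (KCC2), a neuronal transporter, moves it out with potassium. In the rodent forebrain Slc12a5 increases after birth while GABA turns from depolarising to inhibitory, and receptors rich in alpha 2, alpha 3 and alpha 5 are joined or replaced by others, with beta 2 among the subunits that increase late. Gabra2, Gabra3 and Gabra5 were therefore taken as early subunits and Gabrb2 as the late one, with Gabrb1 in neither class.

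Values are MAS5 signals, a brightness summary per probe set on a linear scale, and differences are log2 of double knockout over control after centring. A signal under 178.9, the median of all non-control signals, was treated as too dim to compare and is called under the floor. Mrtfb, floxed in both pools, read 2481.8 in the double knockout-labelled pool and 3358.9 in the control-labelled pool, averaging -0.33 ± 0.15 (SD, 2 probe sets). Mrtfa, null by label in both, read 262.4 in the double knockout-labelled pool and 601.6 in the control-labelled pool on its only probe set, 2.30-fold lower. Of the 11013 genes that reached the floor in both pools, 2, Mrtfa included, were at least as low. The signal of Mrtfa thus goes against labels that give both pools the same Mrtfa genotype. The tables used do not place these probe sets inside or outside the deleted parts. Srf averaged -0.28 ± 0.05 (SD, 2 probe sets). The pools are therefore called by their labels only, and any direction below is between pools so labelled, whose Mrtfa signal also differed.

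The genes' annotated start regions are shown because Slc12a5, the exporter, has 2 of them and because the study concerns a coactivator of SRF, whose binding element is the CArG box. RefSeq start windows ran from 250 bases before to 50 bases after an annotated start in build GRCm38.p6. Those of 6 of the 7 genes were used, 11 windows in all. Slc12a2 was left out, so its start was not searched for any motif. Both strands were searched for 4 motifs: the CArG box, GCGNGGGCG (an Egr-type site), CACGTG (the E box that USF factors bind) and TGACGTCA (the element bound by CREB). None of the 11 windows held a CArG box, which occurs in 1.63% of all 32851 windows of this length. GCGNGGGCG occurs in 5.55% of all windows, CACGTG in 7.15% and TGACGTCA in 1.79%. Of the 11 windows 3 held a match, drawn in capitals below beside the other start of Slc12a5. The Slc12a5 windows lie at chr2:164960596-164960895 and chr2:164967738-164968037 and that of Gabrb1 at chr5:71657671-71657970, and the Gabrb2 one lies at chr11:42420190-42420489, all on the plus strand.
Slc12a5, upstream start: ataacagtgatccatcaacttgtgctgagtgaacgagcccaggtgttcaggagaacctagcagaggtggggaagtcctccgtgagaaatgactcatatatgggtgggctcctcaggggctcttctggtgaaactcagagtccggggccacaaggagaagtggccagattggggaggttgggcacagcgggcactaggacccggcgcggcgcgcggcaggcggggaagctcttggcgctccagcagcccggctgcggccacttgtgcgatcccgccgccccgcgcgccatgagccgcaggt
Slc12a5, downstream start: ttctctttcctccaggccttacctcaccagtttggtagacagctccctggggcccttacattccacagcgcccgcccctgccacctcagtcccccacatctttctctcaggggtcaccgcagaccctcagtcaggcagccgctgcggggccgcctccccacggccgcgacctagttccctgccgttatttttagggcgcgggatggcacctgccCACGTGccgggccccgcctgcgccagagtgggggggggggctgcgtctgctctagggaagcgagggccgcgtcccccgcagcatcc
Gabrb1: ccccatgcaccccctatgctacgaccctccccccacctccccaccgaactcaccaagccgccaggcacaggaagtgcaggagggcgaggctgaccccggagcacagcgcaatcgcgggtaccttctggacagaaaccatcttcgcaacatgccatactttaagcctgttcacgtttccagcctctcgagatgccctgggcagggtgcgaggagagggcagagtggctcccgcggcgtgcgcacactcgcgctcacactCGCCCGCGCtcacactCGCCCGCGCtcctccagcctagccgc
Gabrb2: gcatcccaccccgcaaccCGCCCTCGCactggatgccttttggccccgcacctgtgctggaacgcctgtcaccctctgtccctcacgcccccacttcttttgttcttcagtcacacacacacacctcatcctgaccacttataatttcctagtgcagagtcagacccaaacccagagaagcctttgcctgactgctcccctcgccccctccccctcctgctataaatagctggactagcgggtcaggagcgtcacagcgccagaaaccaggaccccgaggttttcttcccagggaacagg

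The downstream Slc12a5 start carried 1 CACGTG, from 36 to 31 bases before the start. Gabrb1 carried GCGNGGGCG at 2 places without overlap, from base 9 to 17 and from base 25 to 33 after its start, and Gabrb2 carried it once, from 232 to 224 bases before. The remaining windows of Gabra2, Gabra3, Gabra5, Gabrb1 and Gabrb2 held none of these motifs. The annotated 5′ ends of Gabrb1 and of Gabra4, another receptor subunit, overlap head to head and share 388 bases on chromosome 5.

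Across the 7 genes the double knockout-labelled pool and the control-labelled pool gave nearly the same signals. Each gene took its brightest probe set. On these, the 7 genes differed by at most 1.10-fold, with 4 higher, 3 lower and a median of 0.0034 log2. The 11636 measured genes had a median of 0.01, and 52.9% of them were higher in the double knockout-labelled pool. The split of the 7 genes depended on scaling, with 1 of 7 higher after quantile normalization and 1 of 7 after loess centring. With 1 array per pool there is no replicate, so nothing was tested, and no p-value or interval between animals can be given.

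None of the 7 genes reached 1.2-fold in either direction, where 14.0% of all measured genes did, and none reached 1.5-fold, where 1.14% did. For 7 genes the share at 1.2-fold amounts to about 1 gene. All 7 were brighter than the floor on both arrays. With genes split by signal into 3 equal classes, the differences of the 3671 brightest had an SD of 0.13 log2 and those of the 3671 dimmest 0.23. The central 95% of the brightest class ran from -0.25 to 0.26. The 7 genes lay between -0.11 and 0.14.

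**Figure D1:**
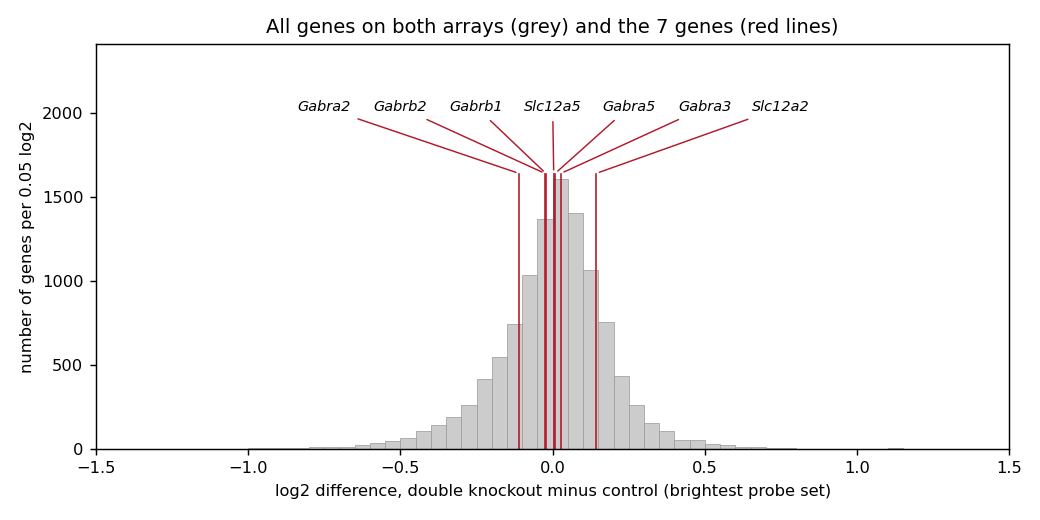
Histogram of the log2 difference (double knockout minus control, x axis) of genes that reached the floor in both pools, as genes per 0.05 log2 bin (y axis). Red lines mark the 7 genes, which lie between -0.11 (Gabra2) and 0.14 (Slc12a2), inside the bulk of the 11013 genes.

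Slc12a2, the chloride importer, was the highest of the 7 genes. Its brightest probe set read 1698.7 in the double knockout-labelled pool and 1535.6 in the control-labelled pool, the next 550.3 and 482.9, and the dimmest 227.3 and 207.8. All 3 probe sets were thus higher in the double knockout-labelled pool, by 0.14, 0.18 and 0.13 log2. Their mean was 0.15 ± 0.03 (SD, 3 probe sets), 1.10-fold on the brightest one. The annotation gives all 3 the same source sequence record, so they are repeated readings of 1 target and not separate evidence about the animals. Of the 1162 genes with 3 probe sets reaching the floor in both pools, 3.53% showed all 3 at least 0.1 log2 higher.

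Slc12a5, the chloride exporter, gave 2 different answers. Its bright probe set read 4700.7 in the double knockout-labelled pool and 4677.6 in the control-labelled pool, a difference of 0.0034 log2. Its dim probe set read 385.5 in the double knockout-labelled pool and 578.0 in the control-labelled pool, a difference of -0.59 log2. The bright one thus shows the pools level, and the dim one puts the double knockout-labelled pool lower, at the 1.5-fold line. Together they averaged -0.29 ± 0.42 (SD, 2 probe sets), with an SD reached or exceeded by 2.55% of the 4858 genes that had 2 or more such probe sets. Both probe sets carry the same source sequence record in the annotation. Which transcripts of Slc12a5 each one reads could not be looked up in the tables used.

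Set against each other, importer and exporter moved apart little on the bright probe sets. The Slc12a2 difference exceeded that of Slc12a5 by 0.14 log2, a shift of 1.10-fold in their ratio toward Slc12a2 in the double knockout-labelled pool. Each of the 6 pairings of a Slc12a2 with a Slc12a5 probe set had the same sign, from 0.12 to 0.77 log2. The 3 small values use the bright Slc12a5 probe set and the 3 large ones the dim one. The size of the shift thus rested on which of the Slc12a5 probe sets was taken, 0.14 with the brightest and 0.74 with the means of the other probe sets.

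**Figure D2:**
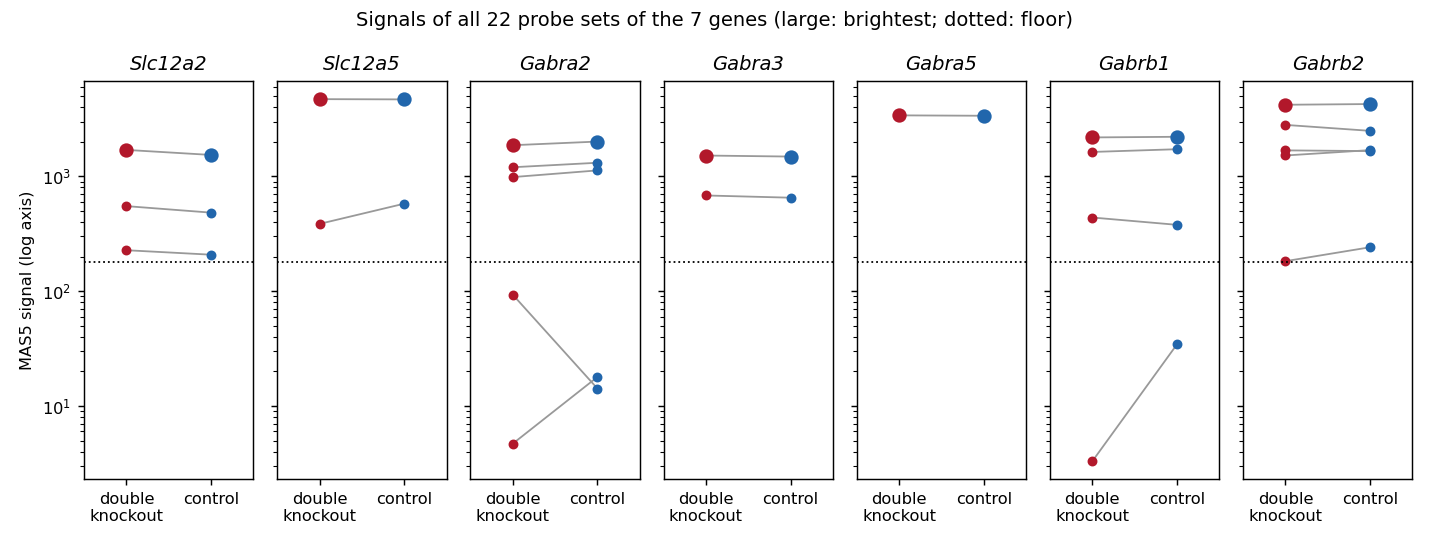
MAS5 signal (log y axis) of each of the 22 probe sets in the double knockout-labelled pool (red, left) and the control-labelled pool (blue, right), 1 panel per gene, with lines joining the same probe set, large points for the brightest and a dotted line at the floor of 178.9. Lines are nearly level except for the dim Slc12a5 probe set (385.5 against 578.0), the dimmest Gabrb2 one (182.5 against 241.3) and the 3 under the floor, which have no order.

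Gabra2, the alpha 2 subunit abundant in the young forebrain, was the lowest of the 7 genes. The 3 Gabra2 probe sets that reached the floor read 1866.1, 1199.7 and 984.9 in the double knockout-labelled pool, against 2008.0, 1313.0 and 1126.0 in the control-labelled pool. Each of them was lower in the double knockout-labelled pool, by -0.11, -0.13 and -0.20 log2, averaging -0.15 ± 0.05 (SD, 3 probe sets). These 3 carry separate source records. Of genes with 3 such probe sets 3.27% had all 3 at least 0.1 log2 lower. Its other 2 probe sets, at 93.2 and 4.7 in the double knockout-labelled pool and 14.2 and 17.9 in the control-labelled pool, stayed under the floor and give no direction.

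The other early subunits were level between the pools. Gabra3, the alpha 3 subunit, read 1517.4 and 681.4 in the double knockout-labelled pool, against 1486.3 and 651.6 in the control-labelled pool, on its 2 probe sets. Gabra5, the alpha 5 subunit found largely outside synapses, read 3395.7 in the double knockout-labelled pool and 3368.8 in the control-labelled pool on its only probe set. Gabra3 differed by a mean of 0.04 ± 0.02 (SD, 2 probe sets) and Gabra5 by 0.01, and the brightest probe sets of both turned slightly negative after quantile normalization and loess centring, at -0.0069 and -0.0024 for Gabra3.

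Beta subunits, which receptors need for assembly and GABA binding, varied between probe sets more than between pools. Gabrb1, the beta 1 subunit, read 2181.7, 1630.7 and 438.0 in the double knockout-labelled pool, against 2209.6, 1722.3 and 378.2 in the control-labelled pool. The 2 brighter ones were lower by -0.02 and -0.08 log2 and the dimmer one higher by 0.21, a mean of 0.03 ± 0.15 (SD, 3 probe sets), and a further one stayed under the floor. Gabrb2, the beta 2 subunit, read 4200.2, 2804.7, 1682.7, 1519.0 and 182.5 in the double knockout-labelled pool, against 4260.8, 2489.2, 1659.2, 1691.8 and 241.3 in the control-labelled pool. Of these 5, 2 were higher and 3 lower, from -0.41 to 0.17 log2, averaging -0.08 ± 0.22 (SD, 5 probe sets). The lowest value belongs to the dimmest probe set, just over the floor, and 3 of the 5 share a source record.

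Early and late subunits did not part. The median of Gabra2, Gabra3 and Gabra5 was 0.01 and the difference of Gabrb2 was -0.02, which leaves 0.03 log2 between the classes. The early genes themselves had an SD of 0.07 log2 around their mean. Of the 30 pairings of an early with a late probe set 16 were above 0, from -0.37 to 0.47. A late class widened to Gabra4, Gabrb2 and Gabrd had the same median of -0.02 over 3 genes, with 1 higher and 2 lower. An age difference between the pools, which the day 1 description would allow, cannot be told apart from genotype with these arrays.

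Counted by probe set, 19 of the 22 were reaching the floor in both pools, 10 of them higher and 9 lower in the double knockout-labelled pool. Past 1.2-fold lay 2 of the 19, against 15.3% of all 20244 measured probe sets naming 1 gene, and both were lower, the dim ones of Slc12a5 and Gabrb2. The Slc12a5 one alone was past 1.5-fold, where 1.38% of all measured probe sets lay, and without centring its -0.584 log2 fell just short of that line at 0.585. Of the 6 genes with at least 2 probe sets 3 had all of them in 1 direction, namely Slc12a2, Gabra2 and Gabra3.

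**Figure D3:**
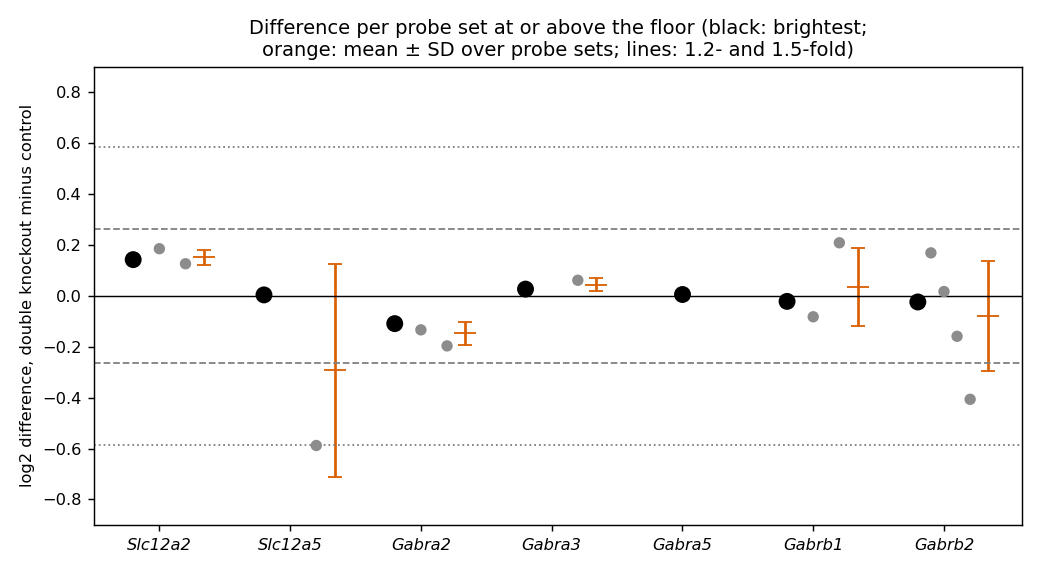
Log2 difference (double knockout minus control, y axis) of each of the 19 probe sets reaching the floor in both pools, by gene (x axis), with the brightest in black and the mean ± SD over a gene's probe sets in orange. Dashed and dotted lines mark 1.2-fold and 1.5-fold, and past the dashed line lie only the dim Slc12a5 (-0.59) and the dimmest Gabrb2 (-0.41) probe sets.

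Beyond these genes, 5 more receptor subunits were measured and each was within 1.2-fold on its brightest probe set. Gabra4, the alpha 4 subunit and head-to-head neighbour of Gabrb1, read 1951.4 in the double knockout-labelled pool and 1908.1 in the control-labelled pool. Gabrg1, the gamma 1 subunit, read 1072.0 in the double knockout-labelled pool and 1150.6 in the control-labelled pool, and both its probe sets were lower, averaging -0.26 ± 0.22 (SD, 2 probe sets). The gamma 3 subunit Gabrg3 was lower by -0.24 on the brightest of its probe sets, which averaged -0.09 ± 0.13 (SD, 3 probe sets), Gabrd by -0.15 and Gabrp by -0.17, each of these 3 at signals of 418.9 or less in both pools. The 10 measured subunits had a median of -0.07 log2 and a range from -0.24 to 0.03. Of these 3 were higher and 7 lower, against 52.9% higher among all measured genes. The 3 higher ones, Gabra3, Gabra4 and Gabra5, turned slightly negative after quantile normalization and after loess centring. The median of the measured subunits lay between -0.09 and -0.02 over 12 alternatives. It was lowest with the mean over probe sets and highest with the 75th percentile as floor. At that floor Gabrg3, Gabrd and Gabrp gave no value, so the subunits counted differ between alternatives. Gabra6, Gabre, Gabrq, Gabrr1 and Gabrr2 stayed under the floor in both pools. Gabrg1, Gabra2, Gabra4 and Gabrb1 lie near each other on chromosome 5, where their differences were -0.11, -0.11, 0.03 and -0.02.

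Of the other cation-chloride cotransporters Slc12a4, a potassium-chloride exporter of many tissues, read 240.0 in the double knockout-labelled pool and 268.5 in the control-labelled pool. Slc12a9, a relative of less settled function, read 611.3 in the double knockout-labelled pool and 595.6 in the control-labelled pool. Both stayed within 1.2-fold, and Slc12a1, Slc12a3, Slc12a7 and Slc12a8 were under the floor. Channels and exchangers that also carry chloride or bicarbonate had a median of 0.03 over 7 genes, with 5 higher and 2 lower. Among those reaching the floor in both pools the largest differences were those of Slc4a8 at 0.09, Clcn2 at 0.08, Clcn4 at -0.07 and Slc4a3 at 0.06, and the probe sets of Slc4a8, Clcn4 and Slc4a3 went both ways.

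WNK kinases sense chloride and act through the kinases encoded by Stk39 (SPAK) and Oxsr1 (OSR1), which phosphorylate both transporters, switching Slc12a2 on and holding Slc12a5 back. In the list of kinases that set the activity of the cotransporters, Oxsr1 read 863.7 in the double knockout-labelled pool and 566.7 in the control-labelled pool. It was 1.52-fold higher on its only probe set. Of the 9 measured kinases and partners it alone was past 1.5-fold, as were 1.14% of all measured genes. Stk39, which does the same work, read 822.7 in the double knockout-labelled pool and 972.8 in the control-labelled pool, and its 2 probe sets averaged -0.12 ± 0.17 (SD). Wnk3 and Wnk2 were higher by 0.16 and 0.15 on their brightest probe sets, with those of Wnk2 going both ways. The list had 8 of 9 higher, against 52.9% of all genes, and a median of 0.08. Phosphorylation is not measured by these arrays.

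Among factors known to act on Slc12a5 transcription, Egr4 and Usf2, 2 of 6 measured, passed 1.2-fold, as did 14.0% of all measured genes. Egr4, an immediate early factor that raises Slc12a5 in rodent neurons, read 310.5 in the double knockout-labelled pool and 437.4 in the control-labelled pool, 1.41-fold lower on its only probe set. Usf2, an E box factor, read 1040.3 in the double knockout-labelled pool and 801.2 in the control-labelled pool, yet its 2 probe sets went both ways and averaged 0.14 ± 0.34 (SD). Nrtn (neurturin) was lower by -0.15 and Ntrk2, the receptor of BDNF, averaged 0.09 ± 0.09 (SD, 6 probe sets). Over the list the median was 0.05 for 6 genes, with 4 higher and 2 lower, on the brightest probe sets. Taken from each gene's mean over its probe sets the median was -0.04. Rest, a repressor of neuronal genes, was under the floor.

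Genes that anchor and move GABA-A receptors had a median of 0.02 over 14 genes, with 9 higher and 5 lower. Shisa7, an accessory protein of the receptor, read 585.0 in the double knockout-labelled pool and 777.5 in the control-labelled pool, 1.33-fold lower on its only probe set. Plcl1, a receptor-binding protein, was chosen after its values were seen. It was under the floor in the double knockout-labelled pool and at 216.4 in the control-labelled pool, at least 1.21-fold lower. These 2 of 14 were past 1.2-fold, the share of all measured genes being 14.0%. Plcl2, Zdhhc3 and Rdx differed by 0.11, 0.11 and -0.10, with probe sets of Zdhhc3 and Rdx in both directions. Gphn, gephyrin, the main scaffold of inhibitory synapses, chosen after its values were seen, was higher by 0.10.

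Among genes that make, degrade and carry GABA, 2 of 7 passed 1.2-fold, against 14.0% of all measured genes, and both are membrane transporters of GABA. Slc6a11 (GAT3), a GABA transporter of astrocytes, read 1710.1 in the double knockout-labelled pool and 2380.7 in the control-labelled pool, 1.40-fold lower on its only probe set reaching the floor. Slc6a13 (GAT2), chosen after its values were seen and found mainly in meninges, read 267.0 in the double knockout-labelled pool and was under the floor in the control-labelled pool, at least 1.49-fold higher. The GABA-making enzyme Gad2 had probe sets in both directions that averaged -0.0029 ± 0.22 (SD, 2 probe sets), and the GABA-degrading enzymes Aldh5a1 and Abat differed by 0.10 and -0.02. The list's median was 0.02 over 7 genes on the brightest probe sets, and -0.01 from means over probe sets reaching the floor in both pools. GABA-B receptor genes, which act through G proteins, had a median of 0.01 over 3 genes on the brightest probe sets. Gabbr1 was at 0.01 on its brightest, yet 1 of its 3 probe sets was higher and they averaged -0.16 ± 0.16 (SD, 3 probe sets). Kctd8 was at 0.02, and Kctd16, chosen after its values were seen, was under the floor in the double knockout-labelled pool and at 205.0 in the control-labelled pool, at least 1.15-fold lower.

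**Figure D4:**
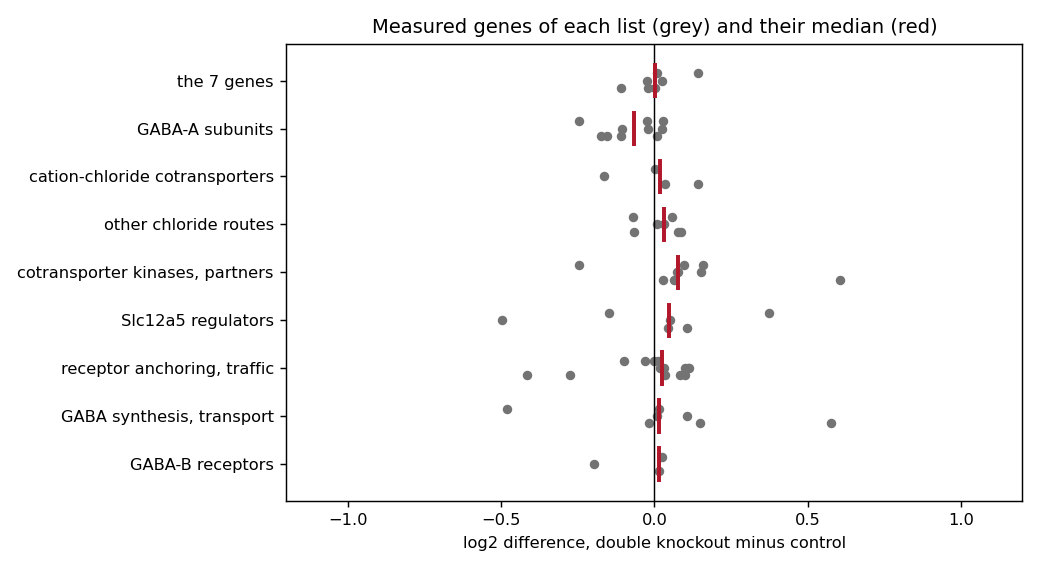
Log2 difference (double knockout minus control, x axis) of every measured gene (grey points) of the 7 genes and of 8 related lists (y axis), with each list's median as a red bar. List medians lie between -0.07 and 0.08, and single genes stand out, among them Oxsr1 at 0.60, Egr4 at -0.50 and Slc6a11 at -0.48.

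In RNA of whole tissue, fewer cells of a type and less RNA per cell cannot be told apart, and several tissue markers differed between the pools. Beside every count of markers higher or lower below stands the share of all measured genes that were higher, 52.9%. Of the annotated cortex markers 8 of 8 reached the floor in both pools, but so did 10 of 11 striatal ones, so reaching the floor does not tell these tissues apart. The cortex markers had 6 of 8 higher and 2 lower, with a median of 0.07. They summed to 13813.2 in the double knockout-labelled pool and 13064.5 in the control-labelled pool. Emx2 was at -0.45, and Bcl11b at 0.18 on its brightest probe set, with 2 higher and 2 lower that averaged -0.06 ± 0.26 (SD, 4 probe sets). Beside the lower Gabra2, striatal markers were lower in 10 of 10 cases, with a summed signal of 10802.2 in the double knockout-labelled pool and 12747.3 in the control-labelled pool, Drd2 at -0.42 and Six3 at -0.41, and Ebf1 under the floor. Their part in the Gabra2 value was not tested. Interneuron markers had 9 of 11 higher and summed to 20412.2 in the double knockout-labelled pool and 19410.8 in the control-labelled pool, with Dlx1 at 0.64 and Dlx6 under the floor. Maf was at 0.38 on its brightest probe set, with 3 higher and 2 lower that averaged 0.14 ± 0.18 (SD, 5 probe sets).

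Beside the higher Slc12a2, which many cell types outside neurons also express, markers of the meninges were higher in 8 of 8 cases. Their summed signal was 8350.0 in the double knockout-labelled pool and 6349.9 in the control-labelled pool, with Aldh1a2 at 0.68 and Igf2 at 0.59. Choroid plexus markers had 1 of 5 higher and summed to 13606.6 in the double knockout-labelled pool and 13477.0 in the control-labelled pool, with Kcnj13 at -0.41 and Clic6 at -0.24 and with Aqp1, Kl and Otx2 under the floor. The higher one, Ttr, named after its values were seen, made up most of that sum at 12739.7 in the double knockout-labelled pool and 12405.5 in the control-labelled pool, and the other 4 summed to 866.9 in the double knockout-labelled pool and 1071.5 in the control-labelled pool. Radial glia markers had 6 of 10 higher and summed to 27391.2 in the double knockout-labelled pool and 27625.6 in the control-labelled pool, with Hes5 at -0.26. Sox9 was at -0.20 on its brighter probe set, and its probe sets went both ways, averaging -0.08 ± 0.17 (SD, 2 probe sets). What part any of these has in the Slc12a2 value was not tested.

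Neuron maturation markers, which bear on Slc12a5 and on early against late subunits, had 6 of 13 higher and a median of -0.03. The list mixes genes of young neurons with genes that increase with maturation, so its count and median do not measure maturity. Past 1.2-fold lay 4 of the 13, against 14.0% of all measured genes. Besides Slc17a7 and Dcx these were Nefm at -0.36 and Nefh at -0.31, named after their values were seen. The 13 markers summed to 71867.5 in the double knockout-labelled pool and 73016.5 in the control-labelled pool. The vesicular glutamate transporter Slc17a7, which increases as cortical neurons mature, was lower by -0.55, and Dcx, doublecortin of young migrating neurons, was higher by a mean of 0.34 ± 0.14 (SD, 4 probe sets). Their part in the Slc12a5 values was not tested. Of the remaining lists, microglia had a median of 0.22 (Mrc1 0.68, C1qc 0.46), with 6 of 9 markers higher and 3 lower. Oligodendrocytes had a median of -0.29 (Mobp -0.97, Mag -0.71), with 2 of 10 markers higher and 8 lower. Astrocytes had a median of 0.02 (Gfap 0.59, Gjb6 0.35), with 4 of 8 markers higher and 4 lower. Endothelial markers had a median of -0.09 (Tek 0.31, Slco1a4 -0.22), with 3 of 8 higher. Hippocampal ones had -0.11 (Wfs1 and Lmo2 both -0.18), with 1 of 6 higher. Thalamic and hypothalamic ones had -0.01 (Pomc 0.73, Tcf7l2 -0.60), with 2 of 7 higher.

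**Figure D5:**
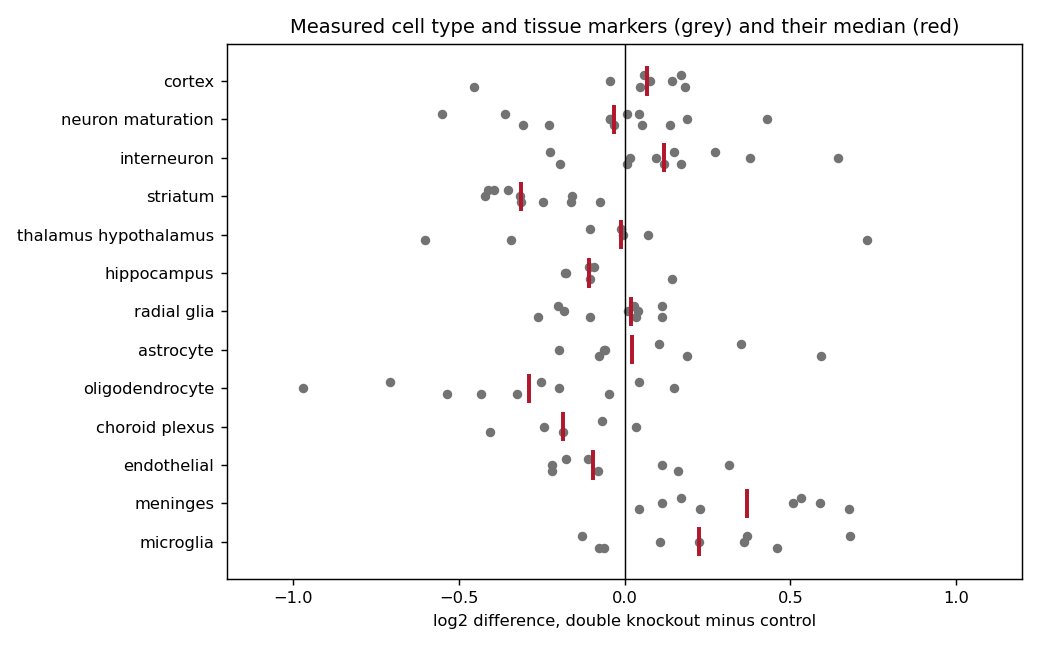
Log2 difference (double knockout minus control, x axis) of every measured marker (grey points) of 13 cell type and tissue lists (y axis), with each list's median as a red bar. All 10 striatal markers lie below 0 and all 8 meningeal markers above 0, while the radial glia, astrocyte and neuron maturation medians lie between -0.03 and 0.02. The neuron maturation list mixes genes of young and of maturing neurons, so its median does not measure maturity.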

How the data were processed

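RNA of cortex pooled from 3 mice per group was hybridised to 1 Affymetrix array per group, from 6 ug total RNA per the labels' protocols. The deposited values are linear intensity signals that the authors made with MAS5, per the submitters' processing notes, with version and target not given in the sources used here. The 2% trimmed mean was 500.002 on both arrays. Columns of no listed sample numbered 0.

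Of 45037 non-control probe sets, 34945 named 1 gene in the platform annotation, 932 named several and 9160 none, and only the first entered. Entrez identifiers of 99.4% matched RefSeq GRCm38.p6. Python 3.11.15 with numpy 2.4.6, pandas 2.3.3, statsmodels 0.14.6 and matplotlib 3.10.9 was used. Signals were centred on the median log2 difference of probe sets bright on both arrays (a shift of 0.0037), then floored at the 50th percentile, 178.9, which matters for dim probe sets. A gene took whichever of its probe sets was brightest by mean log2 signal. SDs run over the probe sets of a gene that reached the floor in both pools. They show technical spread and none between animals, and a fold with 1 array under the floor is a lower bound. The number of arrays, 2, limits the precision. The steps were tested on simulated data.

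Named were all 7 genes, every measured GABA-A subunit and cation-chloride cotransporter, up to 4 genes of each other pathway list and 2 of each marker list with the largest difference reaching the floor in both pools, and Mrtfa, Mrtfb and Srf. Genes marked as chosen or named after their values were seen stand outside this rule. The genes and lists were chosen with earlier results of these data known. Alternatives were other centrings (none, trimmed mean, quantile, loess with span 0.3), floors at the 25th and 75th percentile, no floor, a pseudocount and other probe set rules.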

Additional observations from a re-analysis of the deposited data

How the results depend on the processing

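The 12 alternatives, 11 planned and 1 (the mean of the probe sets other than the brightest) chosen after seeing the data, gave 143 values. Of these 130 stayed within the probe set spread or 1.5 times the count and 13 did not. This tally is no measure of robustness, since part of it was fixed beforehand. The other floors and no floor left every value of the 7 genes unchanged. For a gene with 2 probe sets, their mean or median cannot move beyond their SD. Gabra5 was judged against an SD pooled over all genes, 0.18 log2, and early against late subunits partly so. Slc12a2 stayed higher in all 12 (0.11 to 0.16 log2), Gabra2 lower (-0.17 to -0.10) and Gabrb2 lower (-0.10 to -0.02). Slc12a5 ran from -0.59 to 0.01, with the lowest value by its dim probe set, and its direction differed, with 7 of 12 values above 0 and 5 below. The shift of Slc12a2 against Slc12a5 was above 0 in all 12 (0.12 to 0.74), with 0.74 under the mean of the other probe sets. No centring, trimmed-mean scaling, the other floors and no floor cannot change this shift and returned 0.14 again. The 12 values are therefore not 12 separate checks of its sign, and the same holds for early against late subunits. Early against late subunits ran from 0.03 to 0.09. The median of the measured subunits ran from -0.09 to -0.02, in part because the floor and probe set rules changed which subunits were counted. Gabrp was at -0.07 after quantile normalization, against -0.17.

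The number of the 7 genes higher was 1 after quantile normalization and 1 after loess centring, against 4. At 1.2-fold the count was 1 with the mean, with the median and with the other probe sets, against 0, and at 1.5-fold 1 with the other probe sets, against 0. That gene was Slc12a5 each time. Gabra5 has 1 probe set and gave no value under the last rule. No paired analysis was possible because each group has 1 array. Dim probe sets near the floor limit what Gabrd, Gabrg3, Gabrp and Slc12a4 can show. List medians use the brightest probe sets, and several small ones turned from positive to negative with means over probe sets. These were the cotransporters, the Slc12a5 regulators, GABA synthesis and transport, GABA-B receptors and radial glia.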
